A study of Canis lupus familiaris with 30 samples.

Results

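The 8 genes *FAM3B*, *SVOP*, *FXYD2*, *SCGN*, *AMPD3*, *APBB1*, *AHR* and *AOC1* were followed across 30 canine thyroid carcinomas. They were taken by symbol from a table of 30424 genes and had been selected on their high counts in some of these same tumors, so their levels are given as a description and were not tested. RNA from tumor tissue was sequenced once per tumor, and the reads were counted per gene. The labels call every sample thyroid tumor tissue, with no treatment or genotype, and do not say which tumors arose from follicular cells and which from C cells. All 30 tumors were therefore treated as 1 group, no comparison between carcinoma types was made, and each tumor is named by its TC number.

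Follicular cells of the thyroid make thyroglobulin, the iodinated precursor of thyroid hormone. C cells, which lie between the follicles, are neuroendocrine cells that release calcitonin from dense-core vesicles in response to calcium. The 8 genes are not 1 pathway. *SVOP* encodes a transporter-like protein of synaptic vesicles and *SCGN* encodes secretagogin, a calcium-binding EF-hand protein of neuroendocrine cells. *FAM3B* encodes PANDER, a cytokine-like protein secreted by pancreatic islets, and *FXYD2* encodes the gamma subunit that modulates the sodium pump. *AMPD3* encodes an AMP deaminase, *APBB1* encodes FE65, an adaptor that binds the tail of the amyloid precursor protein, *AHR* encodes a ligand-activated transcription factor, and *AOC1* encodes diamine oxidase, which degrades histamine and other diamines.

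Total counts per tumor ran from 12288945 to 45148677, with a median of 25569678. TC538 had the lowest total, the lowest size factor (0.279) and 37.0% of its counts in its 10 most counted genes. No 2 tumors held identical values, and Spearman's rho between tumors across genes ran from 0.797 to 0.959. TC1088 had only 12 counts of thyroglobulin (*TG*), 1 count of calcitonin (*CALCA*) and 0 counts of *IYD*, the iodotyrosine deiodinase, so the defining transcripts of both thyroid cell types were at or near 0 in it. In bulk tissue, fewer cells of a type and less RNA per cell cannot be told apart. Below, a level is log2 of the normalized count plus 1, and since gene lengths were not used, levels were compared between tumors and not between genes.

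*SCGN* showed the widest break between high and low tumors. It had 9244 counts in TC1601, 9176 in TC2289, 7210 in TC1020, 4953 in TC1473 and 2287 in TC1936. The next tumor was TC22 with 69 counts, and 12 tumors had 0. The lowest level among the high tumors was 11.24 and the highest level below them was 5.63, a gap of 5.61 with no tumor in between. *SVOP* broke at the same place. It had 3643 counts in TC1601, 907 in TC1936, 651 in TC1020, 539 in TC2289 and 226 in TC1473, then 7 in TC22 and 0 in 20 tumors. Its gap between neighbouring tumors was 5.12 on the log2 scale.

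*FXYD2* had the same 5 tumors on top, in another order. Its counts were 2929 in TC1936, 1636 in TC1601, 959 in TC1020, 547 in TC2289 and 360 in TC1473. TC1088 with 37 counts and TC22 with 18 came next, and 17 tumors had 0, so that the gap was narrower at 3.12. *FAM3B* did not follow this set of tumors. It reached 12481 counts in TC1020, 3869 in TC2289, 3795 in TC1473 and 968 in TC1601, but TC1936 had only 14 counts, as had TC22. TC1088, which had 0 counts of *SCGN* and *SVOP*, had 212 counts of *FAM3B*, and 16 tumors had 0. The gap of 3.75 therefore fell below TC1088 and above TC1936.

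**Figure D1:**
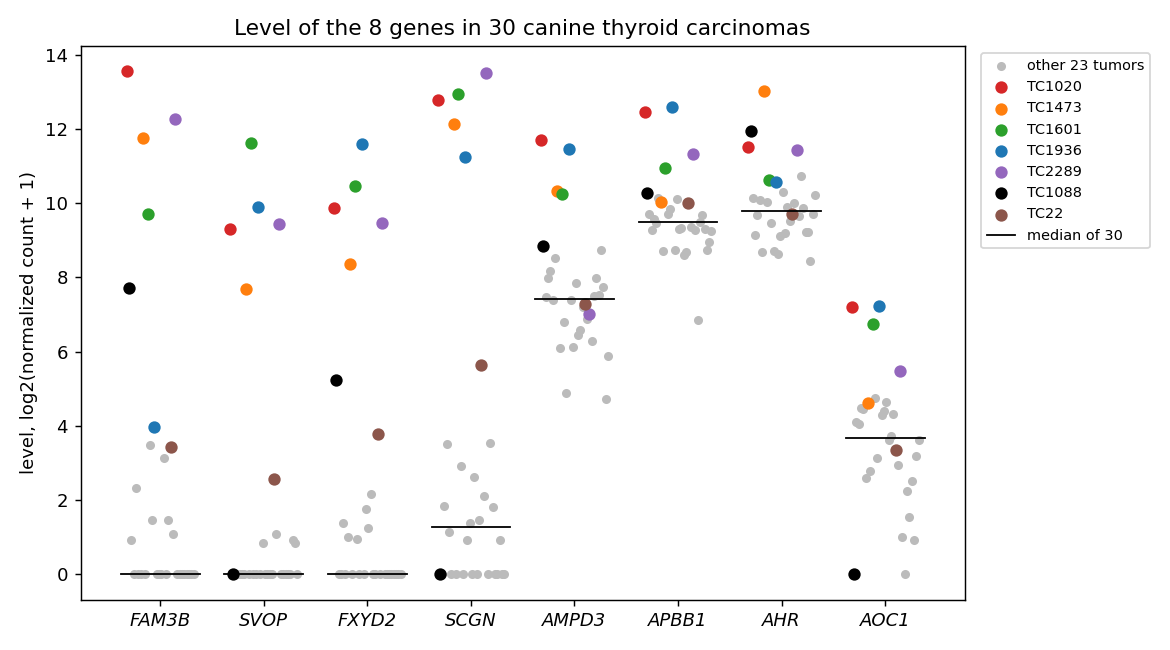
Level (log2 of the normalized count plus 1) of each of the 8 genes on the y axis, with 1 point per tumor, named tumors in colour, the remaining tumors in grey and the median of the 30 tumors as a line. *SCGN*, *SVOP* and *FXYD2* have 5 coloured points far above all others, *FAM3B* has TC1936 low and TC1088 raised, and the other 4 genes spread without such a break.

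The other 4 genes were graded rather than split. *AMPD3* was counted in every tumor, from 31 counts in TC815 to 3424 in TC1020, with a median level of 7.43. TC1020, TC1936 (2664 counts), TC1473 (1405) and TC1601 (1404) lay above the rest by 1.38 on the log2 scale. TC2289, among the highest for *SCGN*, *SVOP*, *FXYD2* and *FAM3B*, had 101 counts of *AMPD3* and a level of 7.03, below the median. *APBB1* levels ran from 6.85 in TC538 to 12.60 in TC1936, with a median of 9.49. The counts were 5867 in TC1020, 5852 in TC1936, 2283 in TC1601 and 1994 in TC2289. TC1473, with 1160 counts and a level of 10.04, lay below TC1088 at 10.28, and so within the range of the other tumors. The largest gap of *APBB1*, 1.74, lay at its low end and set TC538, with 32 counts, apart from the other tumors.

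*AHR* had the narrowest range of the 8 genes, from a level of 8.43 in TC812 to 13.02 in TC1473, with a median of 9.80. TC1473 had 9117 counts, TC1088 had 3951 and TC1020 had 3039. TC538 followed TC2289 in the order of levels at 10.73 and stood above TC1601 at 10.63 and TC1936 at 10.57, so the high and low tumors of the other genes overlapped in *AHR*. *AOC1* was the least counted of the 8. It had 152 counts in TC1020, 140 in TC1936 and 125 in TC1601, but only 34 in TC2289 and 26 in TC1473. The level of TC2289 (5.48) was above that of the remaining tumors, and TC1473 (4.62) lay within their range, below TC1744 (4.77). TC1088 and TC538 had 0 counts of *AOC1*, and its median level was 3.68.

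Against the whole table, 4 of the 8 genes (*FAM3B*, *SVOP*, *FXYD2* and *SCGN*) had a gap of at least 2 on the log2 scale between neighbouring tumors with 2 to 15 tumors above it. Among the 18711 genes that passed the count filter, 404 had such a gap (2.16%). Since the 8 genes were chosen for their values in these tumors, nothing is read from this difference. All 8 passed this filter (10 or more counts in 5 or more tumors), *SVOP* with exactly 5 such tumors.

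**Figure D2:**
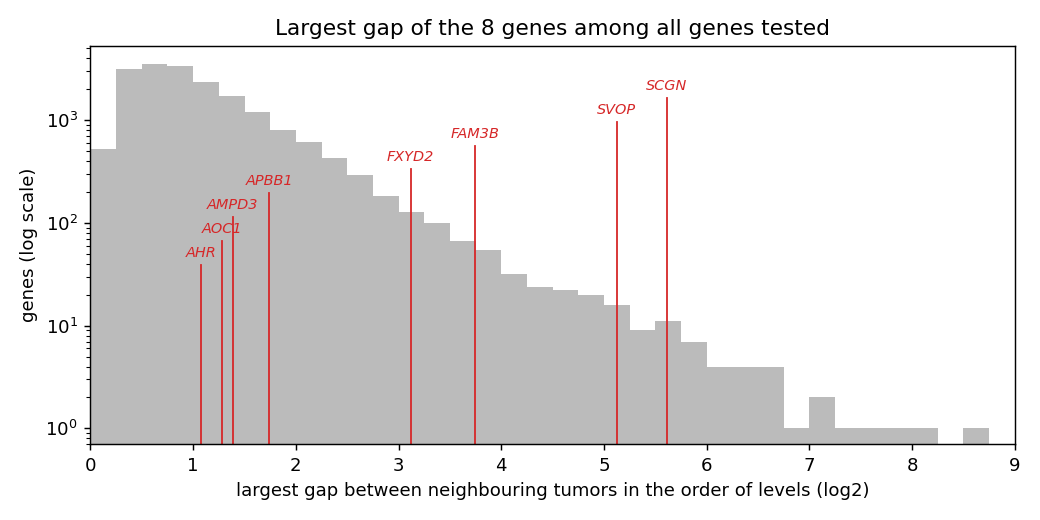
Histogram of the largest gap between neighbouring tumors (log2 scale, x axis) over the 18711 genes, with the number of genes on a log y axis and the 8 genes marked by red lines. *AHR*, *AOC1*, *AMPD3* and *APBB1* lie between 1.07 and 1.74, and *FXYD2*, *FAM3B*, *SVOP* and *SCGN* between 3.12 and 5.61.

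Several C-cell transcripts were high in the tumors where *SCGN* and *SVOP* were high, with exceptions. *SCG2*, a granin of secretory vesicles, had 159262 counts in TC2289 and at least 31912 in TC1601, TC1020, TC1473 and TC1936, against at most 573 elsewhere. *RET*, the receptor tyrosine kinase of C cells, had 9022 to 21691 counts in those 5 tumors and at most 813 in any other. *CHGB* had at least 11024 counts in TC1020, TC1473, TC1936 and TC2289, but 226 in TC1601, below the 375 in TC22. *CALCB* had 59189 counts in TC1601 but 277 in TC2289, below the 573 in TC22. Calcitonin itself did not run in parallel. *CALCA* had 586358 counts in TC1936, 439003 in TC1020, 247126 in TC1473 and 132876 in TC1601, but 95 in TC2289, below the median count of 140.5, although TC2289 had the highest *SCGN* level (13.52). TC22, next in line for *SCGN* and *SVOP*, had 10889 counts of *CALCA*. TC1601, the highest tumor for *SVOP*, also had 248274 counts of *TG*, against 74 in TC1020 and 65 in TC2289. The summed level of 12 C-cell and neuroendocrine genes in the table ran from 8.18 to 19.78, and that of the 10 follicular-cell genes from 7.80 to 22.74. The part of cell content in the levels of the 8 genes was not tested.

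**Figure D3:**
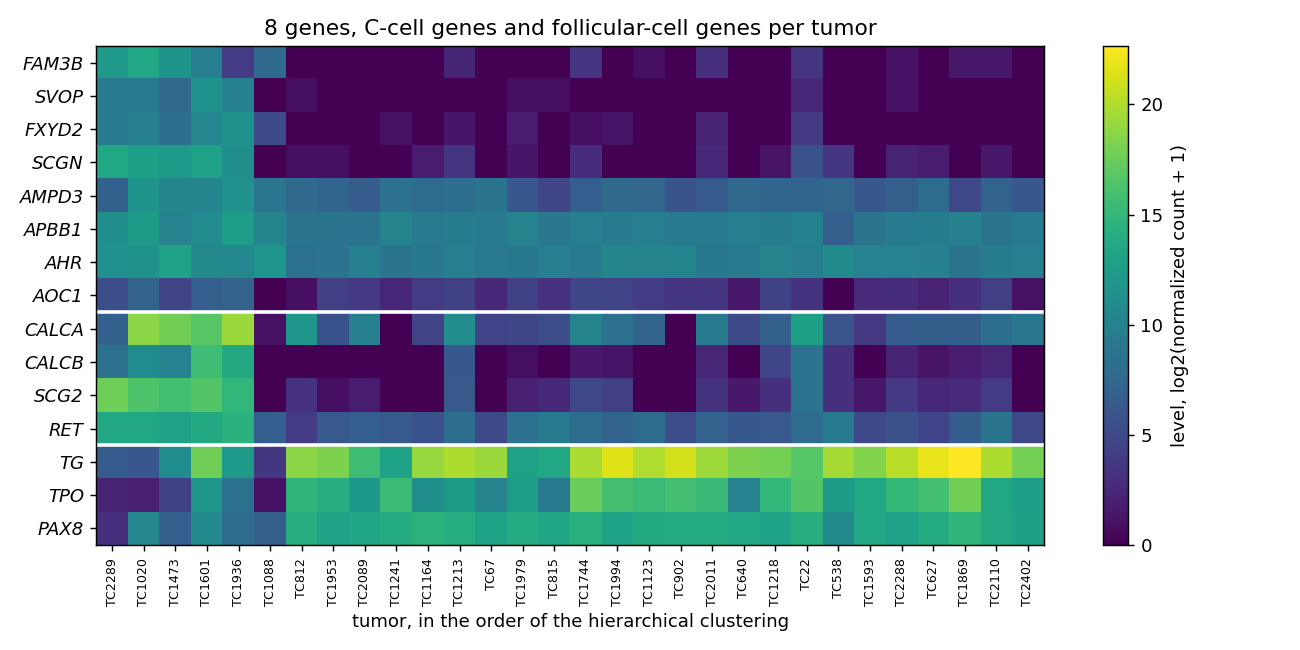
Level (log2 of the normalized count plus 1, colour) of the 8 genes, 4 C-cell genes and 3 follicular-cell genes (rows) in each tumor (columns, in the order of the clustering). The 5 tumors at the left are high for *SCGN*, *SVOP* and *FXYD2*; TC2289 is dark for *CALCA* and *AMPD3*, TC1936 for *FAM3B*, and TC1088 for both sets of thyroid genes.

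The relatives and partners of each gene were taken as listed families, whichever way they moved. Among the sodium pump genes around *FXYD2*, the subunit gene *ATP1B1* was counted in every tumor (1260 to 51769 counts). *ATP1B2*, another beta subunit, had 1283 counts in TC1020 and 1117 in TC1473, but 11 in TC1936, the tumor with the most *FXYD2*. *FXYD3*, another FXYD regulator, was high in TC1601 (3695 counts) and TC1936 (642) but had 2 counts in TC1020 and 2 in TC1473. *FXYD3* and *FXYD5* had their highest level in TC1601, as *SVOP* had, *FXYD6* in TC1020, *FXYD1* in TC812 and *FXYD4* in TC1979. In the family of *FAM3B*, *FAM3C* was counted in every tumor (450 to 3349 counts), *FAM3D* reached 88 counts and *FAM3A* at most 2.

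Among the EF-hand calcium sensors listed with *SCGN*, *CALB1*, which encodes calbindin, had its 5 highest counts in the *SCGN*-high tumors. It had 15580 counts in TC2289, 9921 in TC1936, 1770 in TC1473, 965 in TC1601 and 254 in TC1020, while TC22 had 101. *CALM3*, a calmodulin gene, ranged from 50 to 3189 counts. Other sensors of the list did not follow *SCGN*. *NCS1* and *HPCAL1* had a rho of -0.01 and -0.03 with it over the 30 tumors, and *HPCAL1* had its lowest level (7.40) in TC1936. *VSNL1* had 805 counts in TC1936 but 3 in TC1601, against 112 in TC1088. *HPCA* had 226 counts in TC1020 and 0 in TC1936. Of the vesicle genes listed with *SVOP*, *SNAP25*, a SNARE protein of vesicle fusion, had 2006 to 7985 counts in the *SVOP*-high tumors and at most 51 in the others. *SV2B*, a vesicle glycoprotein of the same transporter superfamily, had 4384 counts in TC1020 and 854 in TC1601 but 42 in TC2289, and *SVOPL*, named for its likeness to *SVOP*, had 1 count in TC1601, where *SVOP* was highest. For *AOC1*, *HDC*, which makes histamine, had at most 5 counts in any tumor, whereas *HNMT*, the other main histamine-degrading enzyme, had 32 to 1116.

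For each gene, the genes most like it by Spearman's rho over the 30 tumors were named. These values include the split between high and low tumors and are a description with no test. *SCGN* was most like *CALCB* (0.85), *GPR158* (0.85) and *SCG2* (0.81). *FXYD2* was most like *CLVS2* (0.89), *SVOP* most like *GCGR* (0.81), and *FAM3B* had *CLVS2* (0.81) among its nearest genes. The graded genes had other neighbours. *AHR* was most like *PLA2G4A* (0.90), which encodes a cytosolic phospholipase A2, *APBB1* most like *MYC* (0.81), *AMPD3* most like *SLIT3* (0.75) and *AOC1* most like *RGS3* (0.88). *AOC1* also had *TMEM176A* (0.85) among its nearest genes, which is its neighbour on the chromosome in RefSeq's UU_Cfam_GSD_1.0 annotation. *SVOP* overlaps *USP30* and *DAO* there, and since the strand setting of the counting is not given in the sources used here, reads from overlapping genes may not be separated.

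Relations between genes were tested only within 1 cluster of tumors, because a pooled correlation would mostly restate the split. Hierarchical clustering of 729 other variable genes, without the 8 genes and the listed genes, divided the tumors into 25 and 5 (TC1020, TC1473, TC1601, TC1936 and TC2289). These branches come from the data and are not groups given by the labels. *AMPD3*, *APBB1* and *AHR* had at least 10 counts in all 25 tumors of the larger branch and were tested there. *AOC1* reached 10 counts in 14 of the 25 tumors, short of the 20 required, and *FAM3B* in 3, *FXYD2* in 2, *SCGN* in 2 and *SVOP* in 0, so these 5 genes were not tested.

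The 3 tested genes did not track each other. Spearman's rho was 0.23 between *AMPD3* and *APBB1* (permutation test, two-sided, adjusted p = 0.775 over 3 pairs; r = 0.11). It was 0.01 between *AMPD3* and *AHR* (permutation test, adjusted p = 0.956; r = 0.16) and -0.09 between *APBB1* and *AHR* (permutation test, adjusted p = 0.956; r = -0.09). Pearson's r had an adjusted permutation p of 0.655 for each pair, and without the 2 tumors farthest from the median it was 0.18, 0.07 and -0.09. No pair passed the threshold of 0.05, which does not show that the genes are unrelated.

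*AHR* was correlated with many genes. By a permutation test of rho adjusted over 18710 genes, 2507 genes rose with *AHR* (13.4%) and 2236 fell (12%), 25.4% in either direction. The highest were *BAZ1A*, a chromatin remodelling subunit (rho 0.91), *ANGPT1*, which encodes angiopoietin 1 (0.90), *LPAR6*, a lysophosphatidic acid receptor (0.90), *LRRK2*, a kinase (0.87), and *IL33*, an alarmin cytokine (0.86). The lowest were *NSUN5* (-0.86), *WDR90* (-0.85), *CDIP1* (-0.84), *WDR81* (-0.84) and *ARFRP1* (-0.84). Each of these 10 had a permutation p of 1e-05, the smallest the permutations can give, and an adjusted p of 0.00121. Pearson's r for *BAZ1A* was 0.88 (permutation p = 1e-05), and 0.90 without the 2 tumors farthest from the median, TC1088 and TC812. For *NSUN5* r was -0.69 (permutation p = 0.00013), and -0.82 without them.

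*AHR* was also set against the first principal component, the direction along which the tumors varied most, and that direction was weighted towards 1 tumor. The component of the other genes held 20.2% of their variance in the 25 tumors. TC538 had the highest value on it (0.69, against 0.18 for TC1088, the next) and 47.9% of its sum of squares. Over the 25 tumors *AHR* had a rho of 0.74 with it (permutation test, two-sided, p = 3e-05, adjusted p = 0.00108 over 36 relations; r = 0.66, permutation p = 0.00126, and 0.67 without TC538 and TC2011, the 2 tumors farthest from the component's median). Leaving out TC538, chosen after seeing the data, the rho was 0.71 with the same values of the component (permutation p = 0.00018) and 0.66 with a component computed anew over the other 24 tumors (permutation p = 0.0007), which held 15.2% of the variance. Given the component of all 25 tumors, in a partial correlation chosen after seeing the data, 55 genes passed the threshold with *AHR*, 48 positive and 7 negative, and 33 of the 55 were among the 4743 above. *BAZ1A*, *ANGPT1*, *LPAR6*, *LRRK2*, *IL33* and *NSUN5* were among the 33. *WDR90* (-0.63), *CDIP1* (-0.61), *WDR81* (-0.58) and *ARFRP1* (-0.58) did not pass given the component, with adjusted p from 0.0729 to 0.122. Without TC538 and given the component computed anew, 60 genes passed, 47 positive and 13 negative, 42 of them among the 4743, with the same 6 named genes past the threshold. The number of correlated genes was also large for other genes. By an approximate p, *AHR* had 4913, more than 85.0% of all genes, while the upper quartile over all genes was 2941 and the median 56. Without TC538 and with no component, 3373 genes passed with *AHR*. What the component stands for, and its part in the relations of *AHR*, was not tested.

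**Figure D4:**
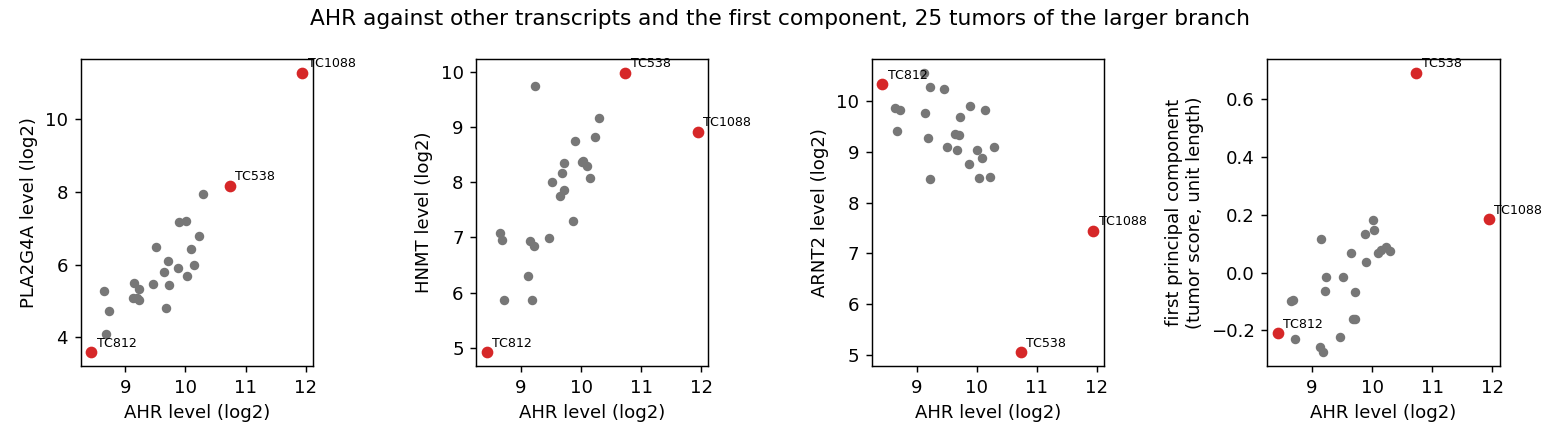
*AHR* level (log2, x axis) in the 25 tumors of the larger branch against the levels of *PLA2G4A*, *HNMT* and *ARNT2* and against the first principal component, with 1 point per tumor and TC1088, TC812 and TC538 in red. *PLA2G4A* and *HNMT* rise with *AHR* and *ARNT2* falls, and TC538 stands apart on the component.

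The AHR protein waits in the cytoplasm with HSP90 and, once bound by a ligand, pairs with ARNT in the nucleus to switch on genes such as *CYP1A1*, *CYP1B1* and *TIPARP*. Of 9 genes of this list, 1 passed, with a negative rho, against 25.4% of all genes, and the median rho was 0.09 against -0.03 over all genes. *ARNT2*, a second dimerization partner, had a rho of -0.63 (permutation test, adjusted p = 0.00927; r = -0.66). It did not pass given the first component (-0.32; adjusted p = 0.553). The target genes did not pass by rho. *TIPARP* had a rho of 0.48 (permutation test, adjusted p = 0.0600) but passed by Pearson's r (0.52; permutation test, adjusted p = 0.0393). *AHRR*, the receptor's repressor, had 0.34, *CYP1B1* 0.17 and *NQO1* 0.09, and the partner *ARNT* had -0.02, each by Spearman's correlation. *CYP1A1*, the classical target, had 100 counts in TC1020, 11 in TC1473 and at most 5 in any other tumor, and *CYP1B1* had 43147 counts in TC1088 against 86 in TC1020, both high for *AHR*.

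Markers of other cells were read against *AHR* in the same way. In the leukocyte list 2 of 8 tested genes passed, against 25.4% of all genes, so the count was near the background. They were *PTPRC*, which encodes CD45 (rho 0.83; permutation test, adjusted p = 0.00142), and *CD163* (0.51; permutation test, adjusted p = 0.0412). Given the first component neither passed (*PTPRC* 0.60, adjusted p = 0.101), and *CD163* did not pass without TC538 (0.46). *CLDN5* (-0.63) was the only one of 7 endothelial genes to pass, *IYD* (-0.55) the only one of 10 follicular-cell genes by rho and *PTH* (0.56) the only one of 2 parathyroid genes. None of these 3 passed given the component, *IYD* did not pass without TC538 (adjusted p = 0.0501) or without TC1088 (adjusted p = 0.0546), and *PTH* did not pass by Pearson's r (0.31). In the larger branch *PTH* had 25445 counts in TC2288 and at most 21 in any other tumor, so its rho mostly ranked low counts. *PAX8*, a transcription factor of follicular cells, passed by Pearson's r (-0.76; permutation test, adjusted p = 0.00563) and with the stricter count filter (rho -0.50; adjusted p = 0.0442), and *DIO1*, a deiodinase, by Pearson's r (-0.53; adjusted p = 0.0477). With the main count filter the rho of *PAX8* was the same and did not pass. Its lowest levels in the branch were in TC1088 (6.87), which had the highest *AHR* there (11.94), and in TC538 (10.84). None of 12 C-cell genes, 7 fibroblast genes, 6 skeletal muscle genes and 2 erythroid genes passed over the 25 tumors. *SCG3*, of the C-cell list, passed without TC538 (rho 0.53; permutation test, adjusted p = 0.0476). *LYZ*, of the leukocyte list, passed without TC1088 (rho 0.54; permutation test, adjusted p = 0.0355). The summed level of each of these lists had a rho with *AHR* between -0.27 and 0.35. The leukocyte sum rested largely on 1 gene, *CD79A*, which held 29.0% to 96.2% of the list's counts (median 79.4%). *CD79A* is a B-cell gene, but *MS4A1*, another B-cell gene of the list, had at most 26 counts in any tumor. The part of other cells in the relations of *AHR* was not tested.

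Of the families listed for the other members, 5 of 15 purine genes passed with *AHR*, 7 of 17 genes around the amyloid precursor protein, 1 of 11 amine oxidase, histamine and polyamine genes and 1 of 6 EF-hand genes. Over all genes the share was 25.4%, and no family was tested against it. The 1 in the histamine group was *HNMT* (rho 0.82; permutation test, adjusted p = 0.00121; r = 0.72). *NCSTN*, a subunit of gamma-secretase, had the lowest rho of the amyloid group (-0.71; permutation test, adjusted p = 0.00343) and *ADAM10*, an alpha-secretase, the highest (0.61; permutation test, adjusted p = 0.0120). None of 9 sodium pump genes, 11 vesicle genes and 2 FAM3 genes passed, though *FAM3C* did without TC1088 (rho 0.51; permutation test, adjusted p = 0.0467). Given the first component, *HNMT* had 0.65 (adjusted p = 0.0628), and of the listed genes that had passed with *AHR* 1 still did, *APBB1IP* (0.56 before and 0.71 given the component; adjusted p = 0.0336), which encodes an adaptor of the RAP1 pathway. *APBB1IP* did not pass without TC538, either with no component (0.51; adjusted p = 0.0568) or given the component computed anew (0.66; adjusted p = 0.0645). *FXYD6*, the chromosomal neighbour of *FXYD2*, passed only given the component (0.71; adjusted p = 0.0382; 0.02 without it), and not when TC538 was left out and the component computed anew (0.62; adjusted p = 0.0910).

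*APBB1* was correlated with few genes, and the number that passed depended on the settings. In the permutation test 8 genes passed, all positive (0.0428%), each with an adjusted p of 0.0468. The highest were *GALNT18* (rho 0.80; r = 0.80, permutation p = 1e-05, and 0.72 without TC538 and TC1088), *RINL* (0.80), *SLC25A6* (0.80), *EML3* (0.79) and *POU6F1* (0.78). Without TC538, the tumor with the lowest *APBB1*, 0 genes passed, and *GALNT18* had a rho of 0.77 and an adjusted p of 0.0935. Given the total count 0 genes passed as well, whereas 131 passed with library sizes scaled by the trimmed mean of M values (TMM). Among its own partners, 0 of 17 passed by rho. *APBA3*, which passed by Pearson's r (0.77; adjusted p = 0.0300) but not by rho (0.52; permutation test, adjusted p = 0.204), *KAT5*, an acetyltransferase that binds FE65 (0.48; adjusted p = 0.245), and *APBB3* (0.43; adjusted p = 0.295) had the highest values, and *APP* itself had -0.03. *RAB3A*, one of the vesicle genes, passed with *APBB1* by Pearson's r (0.75; adjusted p = 0.0206) and with TMM scaling (rho 0.70; adjusted p = 0.0378). The lowest levels of *APBA3* (3.56) and *RAB3A* (4.49) are those of 3 and 6 counts in TC538. Each r therefore includes a low count in the tumor with the lowest *APBB1*. Of *APBB1*, Pearson's r with the total count was 0.59 (permutation p = 0.00350), with a rho of 0.32 (permutation test, adjusted p = 0.178 over 3 genes). Without TC538 and TC1869, the 2 tumors farthest from the median total count, r was 0.25.

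For *AMPD3*, 0 genes passed in the permutation test. An unadjusted permutation p under 0.05 was found for 985 of 18710 genes, about the share that this threshold passes when there is no relation. The number of genes that passed after adjustment was also 0 with the approximate p and under every other setting run. Of its 15 purine genes, *ADK*, the adenosine kinase, had the highest rho (0.53; permutation test, unadjusted p = 0.00686, adjusted p = 0.944) and *XDH*, which makes uric acid, the lowest (-0.37; permutation test, adjusted p = 0.944). The paralogs *AMPD2* (0.18) and *AMPD1* (0.12) were near 0. *AMPD3* had a rho of -0.46 with the total count (permutation test, adjusted p = 0.0642 over 3 genes; r = -0.39, and -0.27 without TC538 and TC1869).

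**Figure D5:**
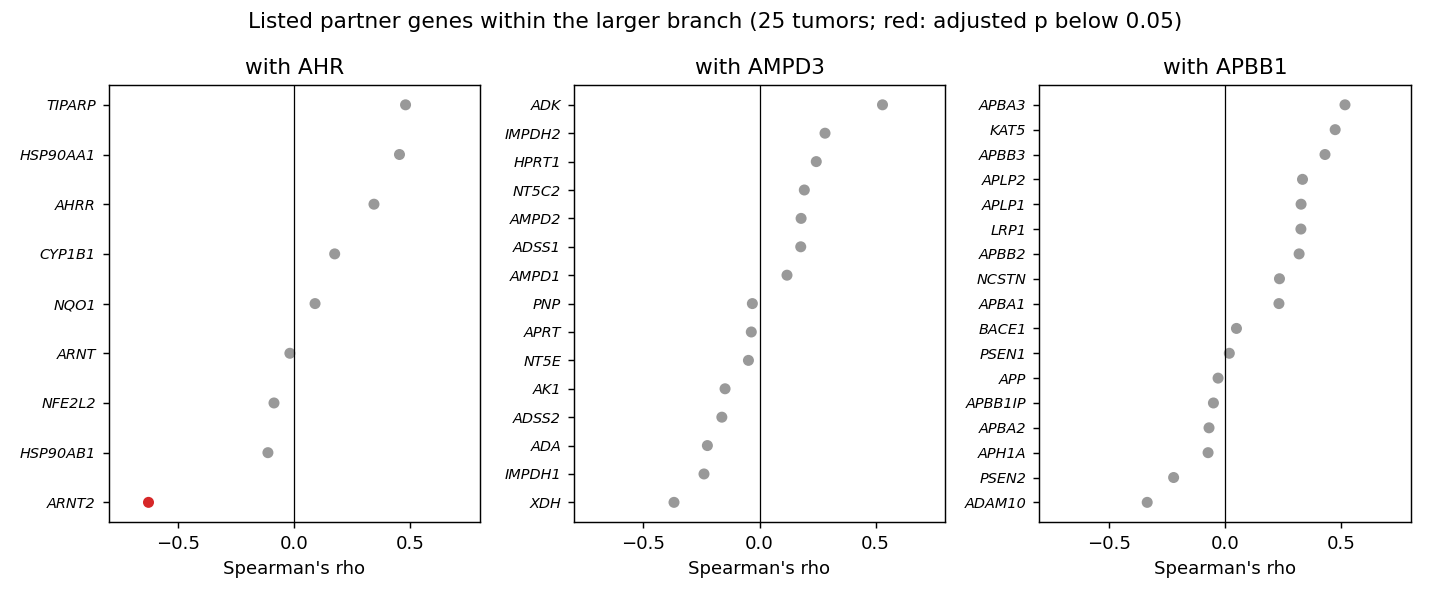
Spearman's rho (x axis) of the listed partner genes (y axis) with *AHR*, *AMPD3* and *APBB1* within the 25 tumors, with red points for an adjusted permutation p under 0.05. *ARNT2* with *AHR*, which is negative, is the only red point.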

How the data were processed

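Ribosome-depleted total RNA of 30 canine thyroid tumors was sequenced once per tumor. Alignment was by STAR to the CanFam3.1 genome, and the authors deposited raw counts per gene and tumor, with no normalization and no pooling. The strand setting is not given in the sources used here. A symbol was given for 15780 of 30424 genes.

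The 8 genes, the gene lists and the rule for named genes were chosen with earlier results of these data known. Genes named in the text come from the 8 genes, the listed marker and partner genes, the 5 genes most like each by rho over 30 tumors, and the 5 highest and 5 lowest past the threshold. Size factors were medians of ratios over 15611 genes and levels used a pseudocount of 1. The count filter kept a gene when 5 or more tumors had 10 or more counts of it. Tumors were clustered by Ward linkage. Tests were two-sided permutations of Spearman's rho (100000 permutations, Benjamini-Hochberg adjusted over all genes). They were checked on simulated counts in which unrelated genes varied independently, so the check does not cover shared variation such as the first component. Because the labels give 1 group, no count model was fitted. With 1 library per tumor the replicate error of a tumor's value cannot be estimated, and low counts carry a large counting error besides. Python 3.11.15, numpy 2.4.6, scipy 1.17.1, pandas 2.3.3 and, for TMM scaling, edgeR 4.0.16 in R 4.3.3 were used. The tried alternatives were TMM scaling, Pearson's r, other count filters, a pseudocount of 8, other linkages, leaving out TC1088 or TC538, and partial correlations. Results on some listed genes are not reported here, and list counts leave those genes out.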

Additional observations from a re-analysis of the deposited data

How the results depend on the processing

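The tumors' branches were the same under average linkage, complete linkage and a pseudocount of 8 (30 of 30 tumors each). Highest minus lowest level moved by less than 1 SD under TMM scaling and a pseudocount of 8 for every gene but *AOC1*, whose range was 4.29 with a pseudocount of 8 against 7.22. For *APBB1*, the positive and negative counts were 101 and 30 with TMM scaling, 929 and 525 with Pearson's r, 19 and 7 with the stricter count filter, and 29 and 17 without TC1088. The positive count was 0 without a count filter, without TC538 and given the total count. These counts of 0 are limited by the smallest p of the permutations. Without a count filter the rho of *GALNT18* with *APBB1* stayed at 0.80. Given the first principal component the counts were 25 and 11, and by the t approximation of p 29 and 13, both chosen after seeing the data. For *AHR*, they were 48 and 7 given that component, and 47 and 13 without TC538 and given the component computed anew, also chosen after seeing the data, against 2507 and 2236. Given the component of all 25 tumors, *CLDN5* (rho 0.037) turned from negative to slightly positive with *AHR*, and 22 other named relations no longer passed. Given the component computed anew without TC538, *CLDN5* had a rho of -0.089. The cause was not tested. Under the other settings the *AHR* counts stayed within 1.5 times, and the 3 relations between *AMPD3*, *APBB1* and *AHR* kept their side of the threshold. Likeness by Pearson's r in place of rho was 0.89 for *GCGR* with *SVOP*, 0.96 for *CLVS2* with *FXYD2*, 0.92 for *CALCB* with *SCGN*, 0.63 for *SLIT3* with *AMPD3* and 0.85 for *PLA2G4A* with *AHR*. No paired analysis was possible because the labels give 1 group and no replicate numbers. Low counts of *AOC1*, *SVOP* and *FXYD2* in most tumors limit what can be read from differences between those tumors.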
